A study of Homo sapiens with 3 samples.

Results

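The transforming growth factor beta (TGF-beta) superfamily was described in C4-2 cells through 54 genes: 32 ligand genes, 12 receptor genes with the coreceptor TGFBR3, the 8 SMAD genes and the antagonists FST and NOG. The members were listed by gene symbol with no limit on their level, but with earlier results of these data known. All 54 were found among the 58302 genes of the count tables. C4-2 is an established human prostate adenocarcinoma line derived from LNCaP cells. The 3 libraries are replicates 1 to 3 of wild-type C4-2 cells, and the labels name no treatment for them. Total RNA was depleted of ribosomal RNA and sequenced. The study also set adenocarcinoma lines against neuroendocrine lines and depleted neuropilin-2 by siRNA in the neuroendocrine cells. Samples of those comparisons were not analysed here, and no conditions are compared. The 3 replicates belong to 1 cell line, and nothing in the labels says that they came from separate cultures, so their spread may be technical.

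Ligands of this superfamily are secreted dimers. They bring together type II and type I receptor kinases, and the type I receptor then phosphorylates receptor-regulated SMADs. SMAD2 and SMAD3 carry signals of TGF-beta, activin and NODAL, whereas SMAD1, SMAD5 and SMAD9 carry those of bone morphogenetic proteins (BMPs). Both branches share SMAD4 and are restrained by the inhibitory SMAD6 and SMAD7. In normal prostate epithelium TGF-beta is known to restrain growth, and BMPs are studied in prostate cancer for its spread to bone.

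The libraries held 47513470 to 51200272 reads assigned to genes, and the 54 members took 0.117% to 0.121% of them. Levels are in TPM, the reads of a gene divided by its merged exon length and scaled to a common total in each library, and they are mean ± SD over 3 libraries unless each library is given. Detection required 10 or more reads in each of the 3 libraries. All 10 luminal prostate markers were detected, from EPCAM at 81.2 ± 2.61 TPM to KLK3, which encodes prostate-specific antigen, at 1440 ± 26.3 TPM. None of the 5 fibroblast, 4 endothelial and 2 basal markers was detected, and their summed levels were 0.0890 to 0.249, 0.0154 to 0.0860 and 0 TPM. The 4 blood and immune markers summed to 0.618 to 1.20 TPM, and CD14 alone among them was detected, with 14, 13 and 26 reads.

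The receptors and SMADs were present almost throughout, while the ligands split into a few expressed genes and many at or near 0. Of the 54 members, 37 were detected (68.5%), beside 71.8% of the 19708 protein-coding genes. At a mean of at least 1 TPM there were 30 members (55.6%), beside 62.7% of protein-coding genes. The members' median level was 1.96 TPM, and that of protein-coding genes 5.43 TPM. Among the ligands, 17 of 32 were detected and 12 reached 1 TPM. Of the receptors with TGFBR3, 11 of 12 were detected and 9 reached 1 TPM, and all 8 SMADs did both. The median level was 0.509 TPM over the ligands, 9.15 TPM over the receptors and 10.2 TPM over the SMADs. These counts describe a chosen list and were not tested. In bulk RNA, fewer cells that use a gene and less RNA per cell cannot be told apart.

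**Figure D1:**
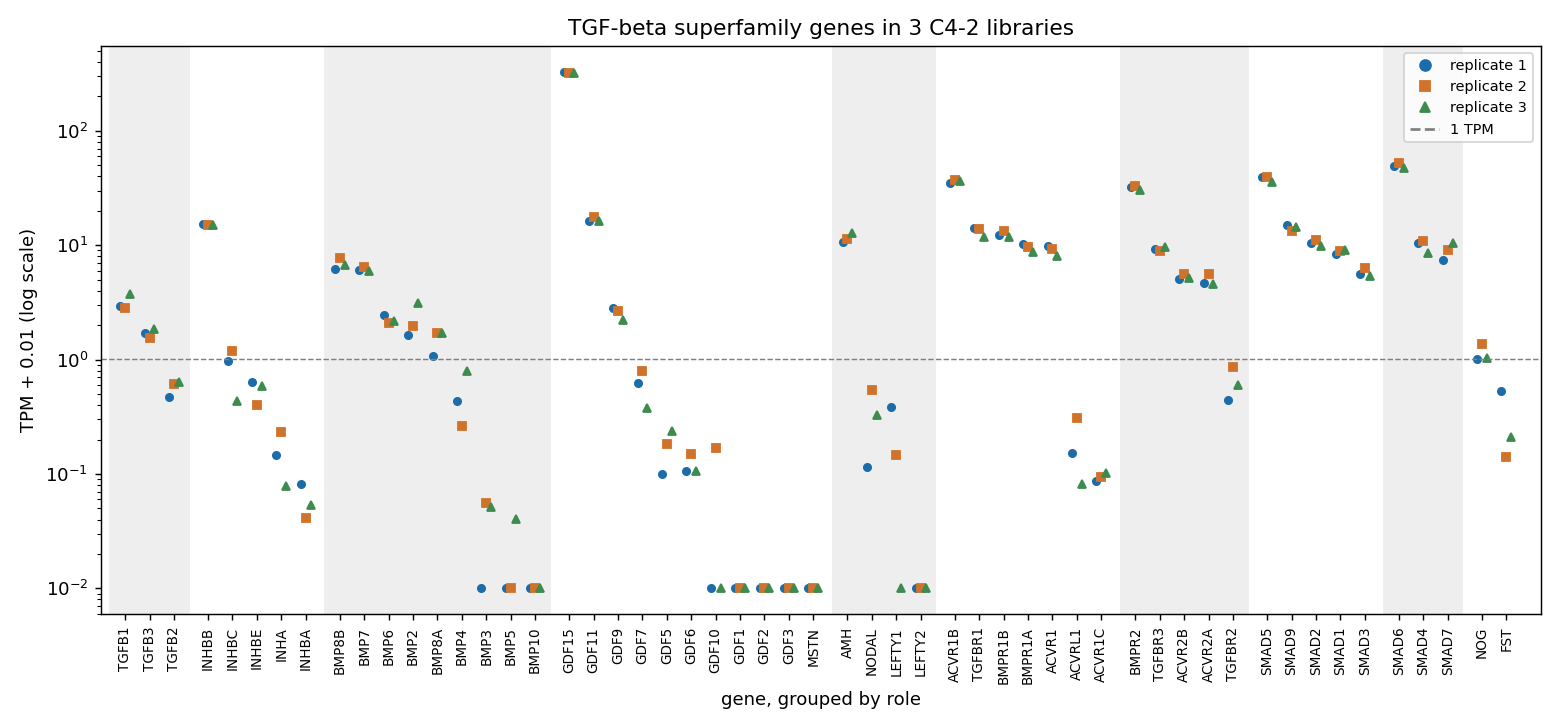
Level of each of the 54 members in the 3 C4-2 libraries, as TPM + 0.01 on a log axis, grouped by role, with 1 symbol for each replicate and a dashed line at 1 TPM. GDF15 at 323 ± 4.85 TPM stands above every other member, and 6 ligands lie at the bottom with 0 reads in every library.

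GDF15 was the member with the highest level. This divergent ligand, also named prostate-derived factor, signals through GFRAL with RET rather than through the SMAD pathway. The gene lies on chromosome 19 from 18374731 to 18389176 (GRCh38, plus strand), and its exons collected 11508, 10269 and 11175 reads. Its level was 328, 319 and 321 TPM in replicates 1 to 3, so the libraries lay close together, and replicate 1 was the highest. Ranked among protein-coding genes, GDF15 stood at percentile 98.4. GDF15 made up 81.4% ± 0.717 of the summed TPM of the 32 ligands (SD, n = 3). The other 31 ligands together summed to 73.8 ± 2.40 TPM. GFRAL, the receptor of GDF15, had 0 reads in every library, and RET, the signalling subunit, had 0.631 ± 0.0754 TPM.

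The GDF15 promoter is shown because this ligand outranked every other member. The sequence is the RefSeq window of GRCh38.p14 from 250 bases before to 50 bases after the transcription start, chr19:18385908-18386207, plus strand, with the TATA motif in capitals, whose leading base lies at position -29 from the start site. It holds 11 CG dinucleotides.
GDF15: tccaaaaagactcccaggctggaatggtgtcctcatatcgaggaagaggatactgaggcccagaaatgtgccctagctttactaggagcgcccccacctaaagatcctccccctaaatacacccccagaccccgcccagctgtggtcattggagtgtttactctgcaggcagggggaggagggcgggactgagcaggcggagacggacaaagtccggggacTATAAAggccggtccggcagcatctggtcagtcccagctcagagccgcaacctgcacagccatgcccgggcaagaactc

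The TGF-beta ligands proper were low. TGFB1, the most widely studied isoform, had 2.92, 2.81 and 3.74 TPM in replicates 1 to 3, the highest value in replicate 3. TGFB3 had 1.70, 1.55 and 1.84 TPM in the same libraries. TGFB2 had 40, 48 and 54 reads, or 0.463, 0.605 and 0.628 TPM, and 26.6% of its exon bases are shared with other annotated genes. The ranges of the 3 isoforms did not overlap, with TGFB1 above TGFB3 and TGFB3 above TGFB2. On the log2(TPM + 0.1) scale the difference of TGFB1 minus TGFB2 was 2.29 ± 0.213, that of TGFB1 minus TGFB3 was 0.85 ± 0.119, and that of GDF15 minus TGFB1 was 6.64 ± 0.223, a 102-fold ratio of mean TPM. Each of these differences had the same sign in 3 of 3 libraries. The exact two-sided sign-flip permutation test gave p = 0.25 for each, the smallest value that 3 libraries allow, and the same holds for every difference between genes below unless another p is given.

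Among the activin and inhibin subunits, INHBB alone reached a mean of 1 TPM. INHBB, the subunit of activin B, had 15.5, 14.9 and 15.0 TPM in replicates 1 to 3. INHBA, the subunit of activin A, had 10, 4 and 6 reads, and INHA, the inhibin alpha subunit, had 4, 6 and 2 reads, so neither was detected. INHBC and INHBE, known mainly from liver, lay between these levels. INHBC had 32, 36 and 14 reads (0.957, 1.17 and 0.421 TPM), lowest in replicate 3. INHBE had 32, 18 and 29 reads. The INHBB minus INHBA difference was 6.69 ± 0.169 on the log2(TPM + 0.1) scale, with the same sign in 3 of 3 libraries. Its size depends on the pseudocount, since INHBA lay below it, and was 3.94 with a pseudocount of 1 and 8.07 with one of 0.01.

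The promoters of INHBB and INHBA are shown because these subunits stood far apart in level and their windows also stood at the opposite ends of CG content among the members. Both are RefSeq windows of GRCh38.p14 with every CG dinucleotide in capitals, INHBB at chr2:120345886-120346185 on the plus strand and INHBA at chr7:41703041-41703340 on the minus strand. The INHBB window holds 58 CG dinucleotides and the INHBA window holds 1, as do the windows of BMP5 and GDF3.
INHBB: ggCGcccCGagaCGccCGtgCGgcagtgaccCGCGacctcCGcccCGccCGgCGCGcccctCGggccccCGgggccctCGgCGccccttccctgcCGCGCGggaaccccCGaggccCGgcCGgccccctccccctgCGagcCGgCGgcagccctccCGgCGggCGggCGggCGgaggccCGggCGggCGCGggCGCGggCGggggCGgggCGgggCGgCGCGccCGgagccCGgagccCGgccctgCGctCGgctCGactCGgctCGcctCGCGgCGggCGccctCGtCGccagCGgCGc
INHBA: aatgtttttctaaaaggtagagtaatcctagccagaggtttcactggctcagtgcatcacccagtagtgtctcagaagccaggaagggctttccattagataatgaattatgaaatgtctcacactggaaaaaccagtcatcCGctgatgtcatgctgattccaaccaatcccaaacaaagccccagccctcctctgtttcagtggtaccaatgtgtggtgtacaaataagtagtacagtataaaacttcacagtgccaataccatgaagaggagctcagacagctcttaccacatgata

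Of the 9 BMP ligands, 6 were detected and 5 reached 1 TPM. BMP8B, studied in mice for its role in brown fat, had 6.24, 7.68 and 6.71 TPM in replicates 1 to 3. BMP7, which acts in kidney and skeletal development, had 6.06, 6.42 and 5.94 TPM, so its range overlapped that of BMP8B. BMP6, an inducer of hepcidin, had 2.42, 2.08 and 2.18 TPM. BMP2, an inducer of bone formation, had 1.62, 1.95 and 3.09 TPM, with replicate 3 well above the others. BMP8A, the close paralog of BMP8B, had 1.06, 1.69 and 1.70 TPM, lowest in replicate 1. The BMP8A and BMP8B values are uncertain, because 12.8% of the 50-base windows of BMP8A and 15.0% of those of BMP8B occur unchanged in the other gene. With canonical transcript lengths in place of merged exon lengths, BMP8A stood at 0.295 TPM and BMP6 at 1.08 TPM. That setting changes the length of every gene and so also rescales the common total.

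The remaining BMP ligands were close to 0. BMP4 had 22, 12 and 40 reads, or 0.425, 0.253 and 0.777 TPM, again highest in replicate 3. BMP3 had 0, 4 and 4 reads, BMP5 had 0, 0 and 2 reads, and BMP10, a ligand of the endothelial receptor ACVRL1, had 0 reads in every library. The BMP4 minus BMP2 difference was -2.04 ± 0.439 on the log2(TPM + 0.1) scale, and the BMP7 minus BMP4 difference was 3.51 ± 0.714. Each had the same sign in 3 of 3 libraries. With canonical transcript lengths the BMP4 minus BMP2 difference was -1.43.

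Beyond GDF15, the growth and differentiation factors (GDFs) were led by GDF11. GDF11, a relative of myostatin that patterns the body axis in mice, had 16.2, 17.5 and 16.4 TPM in replicates 1 to 3. GDF9, an oocyte factor, had 2.82, 2.65 and 2.21 TPM. GDF7 had 100, 118 and 60 reads, or 0.611, 0.786 and 0.369 TPM, lowest in replicate 3. Of the 11 GDF genes with MSTN, 4 were detected, and 3 of those reached 1 TPM. GDF5 had 4, 7 and 10 reads, with 35.2% of its exon bases shared with other genes. GDF6 had 6, 8 and 6 reads, and GDF10 had 0, 6 and 0 reads.

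The ligand list ends with 6 genes at 0. BMP10, GDF1, GDF2, GDF3, LEFTY2 and MSTN had 0 reads in every library, and 13.1% of protein-coding genes did so. A count of 0 allows up to 3 reads in a library, which corresponds to 0.0690 TPM for MSTN, the gene of myostatin, and to 0.157 TPM for the short GDF3 gene. If both mates of a fragment were counted, 3 fragments are 6 reads, and these limits become 0.138 and 0.314 TPM. The limits cover counting error only. GDF1 shares 100% of its exon bases with the overlapping CERS1 annotation, so its 0 carries no information about the transcript.

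AMH stood out among the developmental ligands. AMH, the anti-Müllerian hormone, had 10.6, 11.3 and 12.8 TPM in replicates 1 to 3, highest in replicate 3. AMHR2, its type II receptor, had 2.91, 2.73 and 3.03 TPM. NODAL, the mesendoderm inducer, had 3, 14 and 9 reads, and 41.2% of its exon bases are shared with other genes. LEFTY1, a NODAL antagonist, had 12, 4 and 0 reads, with 46.6% of its exon bases shared. None of NODAL, LEFTY1 and LEFTY2 was therefore detected.

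The type I receptors were led by ACVR1B. ACVR1B, also known as ALK4 and used by activins, had 34.8, 37.4 and 36.7 TPM in replicates 1 to 3, or 44.9% ± 2.37 of the summed TPM of the 7 type I receptors (SD, n = 3). TGFBR1, the type I receptor for TGF-beta, had 14.1, 13.8 and 11.8 TPM, lowest in replicate 3. The ACVR1B minus TGFBR1 difference was 1.45 ± 0.165 on the log2(TPM + 0.1) scale, with the same sign in 3 of 3 libraries. With merged exon lengths the BMP type I receptors followed at similar levels. BMPR1B had 12.3, 13.3 and 11.9 TPM, BMPR1A had 10.2, 9.68 and 8.73 TPM, and ACVR1 had 9.81, 9.21 and 8.05 TPM. BMPR1A and ACVR1 were highest in replicate 1 and lowest in replicate 3. ACVR1C, or ALK7, had 12, 12 and 14 reads, which passed the detection limit at 0.0846 ± 0.00673 TPM. ACVRL1, the endothelial receptor for GDF2 and BMP10, had 12, 23 and 6 reads and was the 1 receptor not detected.

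The order of the paired BMP receptors depended on the gene length. The BMPR1A minus BMPR1B difference was -0.39 ± 0.106 with merged exon lengths, and 0.26 with canonical transcript lengths. The same holds for their place below TGFBR1. With canonical transcript lengths BMPR1A at 11.2 ± 0.870 TPM was above TGFBR1 at 9.26 ± 0.850 TPM. BMPR1B at 9.36 ± 0.521 TPM was then close to TGFBR1. BMPR1A counts are also uncertain, since 12.8% of the 50-base windows of its canonical transcript occur in the pseudogene BMPR1AP1.

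The type II receptors were dominated by BMPR2, and TGFBR2 was the lowest of them. BMPR2, the type II receptor of BMPs, had 32.1, 33.3 and 30.1 TPM in replicates 1 to 3. It held 74.7% ± 1.37 of the summed TPM of BMPR2, ACVR2A, ACVR2B and TGFBR2 (SD, n = 3). TGFBR2, the type II receptor that binds TGF-beta, had 34, 62 and 46 reads, or 0.430, 0.856 and 0.586 TPM. Its share of that sum was 1.45% ± 0.434 (SD, n = 3). TGFBR2 lies on chromosome 3 from 30606502 to 30694142 (GRCh38, plus strand). The TGFBR1 minus TGFBR2 difference was 4.24 ± 0.452 on the log2(TPM + 0.1) scale, a 21.3-fold ratio of mean TPM. The BMPR2 minus TGFBR2 difference was 5.50 ± 0.401, a 51.0-fold ratio of mean TPM. Both had the same sign in 3 of 3 libraries.

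The activin type II receptors lay between. ACVR2B had 5.02, 5.56 and 5.17 TPM, and ACVR2A had 4.62, 5.63 and 4.53 TPM, so their ranges overlapped. The ACVR2A minus ACVR2B difference was -0.10 ± 0.103 on the log2(TPM + 0.1) scale, negative in 2 of 3 libraries, with p = 0.5 in the exact sign-flip permutation test. TGFBR3, or betaglycan, a coreceptor that presents TGF-beta ligands and inhibin, had 9.28, 8.97 and 9.59 TPM. TGFBR3 was therefore above TGFBR2 in every library.

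The TGFBR2 promoter is shown because this receptor was low although its window was not poor in CG. It is the RefSeq window of GRCh38.p14 at chr3:30606351-30606650, plus strand, with its 23 CG dinucleotides in capitals.
TGFBR2: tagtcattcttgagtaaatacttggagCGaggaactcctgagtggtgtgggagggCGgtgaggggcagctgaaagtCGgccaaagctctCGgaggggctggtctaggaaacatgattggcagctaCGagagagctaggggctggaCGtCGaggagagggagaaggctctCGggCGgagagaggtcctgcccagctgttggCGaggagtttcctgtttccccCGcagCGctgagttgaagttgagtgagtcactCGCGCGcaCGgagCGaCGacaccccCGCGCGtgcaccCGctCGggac

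**Figure D2:**
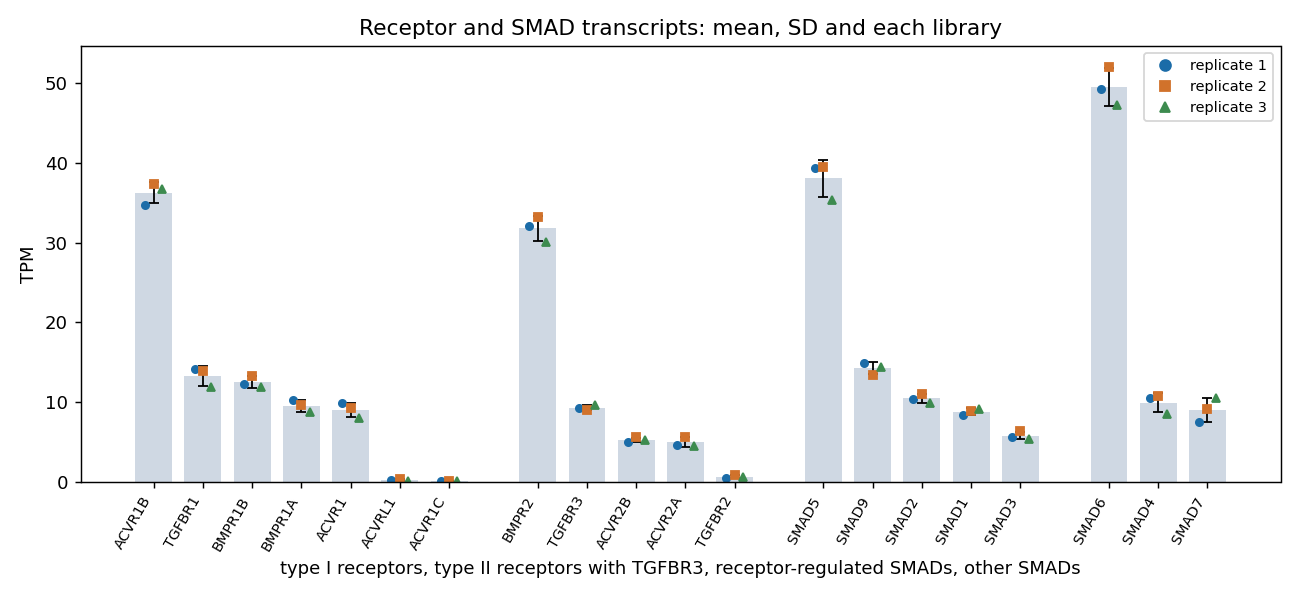
Level in TPM (linear axis) of the receptors with TGFBR3 and of the SMADs, with bars for the mean of 3 libraries, error bars for the SD and points for the replicates. ACVR1B and BMPR2 are the highest receptors and TGFBR2 stays at 0.624 ± 0.215 TPM, while SMAD6 and SMAD5 are the highest SMADs.

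Among the SMADs, the inhibitory SMAD6 was highest. SMAD6, which restrains mainly the BMP branch, had 49.3, 52.1 and 47.3 TPM in replicates 1 to 3. It lies on chromosome 15 from 66702228 to 66782848 (GRCh38, plus strand) and collected 7093, 6872 and 6766 reads. SMAD6 held 34.0% ± 0.431 of the summed SMAD TPM (SD, n = 3), and 47.2% ± 0.418 with canonical transcript lengths. SMAD7, which restrains both branches, had 7.44, 9.06 and 10.4 TPM, lowest in replicate 1 and highest in replicate 3. The SMAD7 minus SMAD6 difference was -2.46 ± 0.275 on the log2(TPM + 0.1) scale, with the same sign in 3 of 3 libraries, and -3.48 with canonical transcript lengths. SMAD4, the shared partner of both branches, had 10.4, 10.8 and 8.55 TPM, lowest in replicate 3.

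The SMAD6 promoter is shown because it alone among the 45 members with a window held the palindromic SMAD box GTCTAGAC, given in capitals, whose leading base lies at position -12 from the start site. It is the RefSeq window of GRCh38.p14 at chr15:66701986-66702285, plus strand. The box reads the same on both strands and occurs in 0.205% of 27305 genes, counted with 1 window each. A match describes the letters and does not show that a SMAD binds there.
SMAD6: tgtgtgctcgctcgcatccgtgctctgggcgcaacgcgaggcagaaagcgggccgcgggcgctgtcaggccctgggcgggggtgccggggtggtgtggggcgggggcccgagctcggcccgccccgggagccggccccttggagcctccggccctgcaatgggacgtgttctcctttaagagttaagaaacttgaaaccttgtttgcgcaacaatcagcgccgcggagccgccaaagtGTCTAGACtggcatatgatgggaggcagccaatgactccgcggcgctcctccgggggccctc

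In summed TPM, the SMADs of the BMP branch exceeded those of the TGF-beta and activin branch. SMAD5 had 39.4, 39.5 and 35.4 TPM in replicates 1 to 3, SMAD9 had 14.9, 13.4 and 14.4 TPM, and SMAD1 had 8.32, 8.91 and 9.11 TPM. Together these BMP-branch SMADs summed to 61.1 ± 1.93 TPM, or 41.9% ± 1.02 of the SMAD total (SD, n = 3). SMAD2 had 10.4, 11.1 and 9.86 TPM, and SMAD3 had 5.65, 6.29 and 5.36 TPM. Their sum was 16.2 ± 1.07 TPM, or 11.1% ± 0.333 of the SMAD total. The size of this gap depends on gene length, since SMAD2 has 36366 bases of merged exons and SMAD5 has 8779. In reads, SMAD2 with 6356, 6192 and 5990 was above SMAD5 with 5803, 5338 and 5189. The canonical transcript of SMAD2 is also long, at 34626 bases, so that setting does not remove the dependence. The SMAD2 minus SMAD3 difference was 0.85 ± 0.0379 on the log2(TPM + 0.1) scale, and the SMAD5 minus SMAD1 difference was 2.10 ± 0.144, each with the same sign in 3 of 3 libraries. With canonical transcript lengths the SMAD5 minus SMAD1 difference was 1.42.

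The antagonists among the members, FST and NOG, were scarce. Other ligand traps were counted with the other pathway genes. Among those, FSTL3 had 12.2 ± 0.587 TPM, while 15 of the 23 traps and matrix carriers lay below 1 TPM. NOG, which encodes noggin and sequesters BMPs, had 1.01, 1.37 and 1.01 TPM in replicates 1 to 3. Its mean was 0.741 TPM with canonical transcript lengths. Its own lengths are close, at 1892 merged and 1913 canonical bases, so this fall comes from the rescaled common total. FST, which encodes follistatin and binds activins, had 26, 6 and 10 reads, or 0.522, 0.131 and 0.202 TPM, highest in replicate 1 and below the detection limit in replicate 2. The NOG minus FST difference was 1.80 ± 0.922 on the log2(TPM + 0.1) scale, with the same sign in 3 of 3 libraries and the widest spread of the 15 gene pairs compared.

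Set in 1 order of mean TPM with merged exon lengths, the members at 1 TPM or more opened with GDF15, SMAD6 and SMAD5, whose ranges did not overlap. SMAD5 and ACVR1B overlapped. ACVR1B, BMPR2, GDF11 and INHBB then followed without overlap. From INHBB at 15.1 ± 0.307 TPM to SMAD1 at 8.78 ± 0.410 TPM each member overlapped with the next, so neighbours in that stretch were not separated, although members further apart in it, such as SMAD9 and SMAD1, did not overlap. SMAD1 lay above BMP8B, and ACVR2A above TGFB1, without overlap. Parts of this order depend on the gene length used, also where ranges did not overlap. With canonical transcript lengths SMAD1 at 11.7 ± 0.567 TPM was above SMAD9 at 9.73 ± 0.538 TPM. Its mean was then also above those of GDF11 and INHBB.

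How many members varied between the replicates beyond counting error depended on the counting error assumed, as among all genes. A chi-square test of each gene's 3 counts against the library sizes, with Benjamini-Hochberg adjustment over all 21039 detected genes, called 21 of the 37 detected members (56.8%), beside 46.1% of all detected genes. The deposited counts are mostly even at low values, at 78.7% to 84.5% of gene counts from 2 to 20, as when both mates of a pair are counted, and the test then assumes too small a counting error. With the statistic divided by 2 for this, 5 members were called (13.5%), beside 17.6% of all detected genes. Those were BMP2, GDF7, GDF15, SMAD4 and SMAD7.

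These 5 differed in size and in which library was highest or lowest, here per effective library size as in the test. BMP2 differed by 1.96-fold between its highest library, replicate 3, and its lowest, replicate 1 (chi-square, adjusted p = 1.95e-07, and 0.00172 with the divided statistic). GDF7 differed by 2.03-fold, with replicate 3 the lowest (adjusted p = 0.000221 and 0.0374). SMAD7 differed by 1.44-fold, with replicate 3 the highest, replicate 1 the lowest and replicate 2 between them (adjusted p = 1.48e-07 and 0.00151). SMAD4 differed by 1.20-fold, with replicate 3 the lowest (adjusted p = 1.16e-08 and 0.000472). GDF15, the most deeply counted member, differed by 1.06-fold, with replicate 2 the lowest and the other libraries close together (adjusted p = 0.000302 and 0.0426). Without replicate 3 the chi-square test called 6 of 38 members, beside 23.8% of genes, and with the divided statistic 0 members, beside 6.56% of genes, while 5 had an unadjusted p under 0.05. Without replicate 2 it called 13 of 38 members, beside 23.8% of genes, and 3 with the divided statistic, beside 5.89% of genes. Without replicate 1 it called 17 of 37 members, beside 32.7% of genes, and 4 with the divided statistic, beside 14.9% of genes. TGFBR2 was called with adjusted p = 0.0170, and had 0.217 with the divided statistic.

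**Figure D3:**
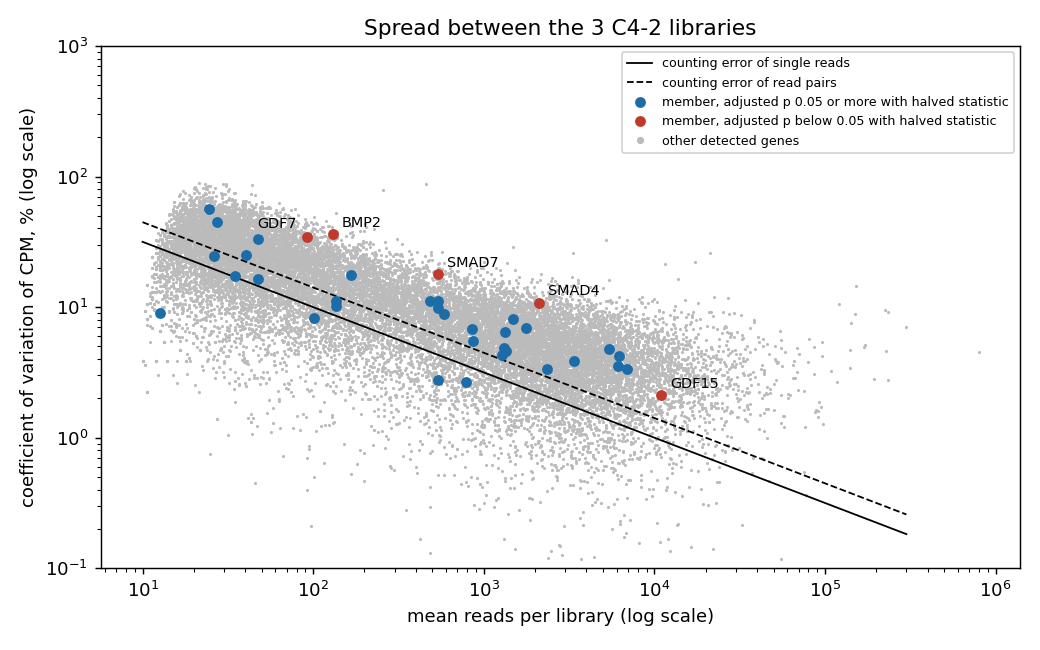
Coefficient of variation over 3 libraries in percent against mean reads for all detected genes (grey) and the detected members (blue or red), on log axes. Lines mark the counting error of single reads and of read pairs. The 5 members called with the divided statistic are in red, with BMP2 and GDF7 at the largest spread among them and GDF15 at the far right with the smallest.

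Other pathway genes were counted by function, with no test. Of all protein-coding genes, 71.8% were detected and 62.7% had a mean of at least 1 TPM. Of 23 ligand traps and matrix carriers, 14 were detected (60.9%) and 8 reached 1 TPM (34.8%). They were led by THBS1, an activator of latent TGF-beta, at 115 ± 0.653 TPM. The latent TGF-beta binding proteins LTBP3 and LTBP4 had 55.7 ± 1.20 and 27.6 ± 1.37 TPM, and the BMP modulator TWSG1 had 24.7 ± 2.41 TPM. CER1 and SOST had 0 reads. Of 6 proteases that process ligands, 5 were detected (83.3%) and 4 reached 1 TPM (66.7%). FURIN, which cleaves TGF-beta precursors, had 39.4 ± 2.40 TPM, followed by PCSK6 at 6.30 ± 0.203, BMP1 at 6.17 ± 0.168 and TLL2 at 1.94 ± 0.0766 TPM.

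Of 13 coreceptors and other receptors, 7 were detected (53.8%) and 5 reached 1 TPM (38.5%). BAMBI, a decoy receptor without a kinase domain, had 94.2 ± 6.87 TPM, above every receptor among the members. ITGAV, an integrin subunit that takes part in activation of latent TGF-beta, had 31.7 ± 2.71 TPM, and RGMB, a BMP coreceptor, had 19.6 ± 0.848 TPM, with 45.6% of its exon bases shared with other genes. Of the partners of ITGAV in that activation, ITGB6 had 0 reads and ITGB8 had 16, 20 and 8 reads. No read was assigned to the NODAL coreceptors TDGF1 and CFC1. All 19 SMAD partners and regulators exceeded 1 TPM, led by STRAP, a partner of SMAD7, with 199.6, 212.2 and 194.7 TPM in replicates 1 to 3. It was followed by FKBP1A at 140 ± 7.76, the corepressor SKI at 122 ± 1.46 and the ubiquitin ligase NEDD4L at 73.4 ± 1.66 TPM.

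Known transcriptional targets ranged from 0.0540 TPM for HAMP to 298 TPM for GATA2. Of 19 targets, 16 were detected (84.2%) and all 16 reached 1 TPM, beside 71.8% and 62.7% of protein-coding genes. GATA2 had 291, 297 and 306 TPM in replicates 1 to 3. ID1 and ID3, immediate targets of the BMP branch, had 166 ± 2.61 and 134 ± 6.19 TPM, and PMEPA1, a feedback inhibitor of TGF-beta signalling, had 155 ± 1.12 TPM. Not detected were CCN2 with 6, 0 and 4 reads, TGFBI with 10, 6 and 12 reads, and the liver gene HAMP with 4, 2 and 2 reads. CCN2 and TGFBI are classical targets of TGF-beta, but they alone do not measure the output of that branch, which was not tested. Other targets of the list were detected, among them JUNB at 111 ± 1.24 and CDKN1A at 104 ± 0.532 TPM. SNAI2 had 6.47 ± 1.09 and CDKN2B 1.49 ± 0.538 TPM. Most of the 19 targets also have regulators outside the superfamily, and which of those regulators acts here was not tested. SKIL and LTBP2 stand in 2 of these lists each.

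**Figure D4:**
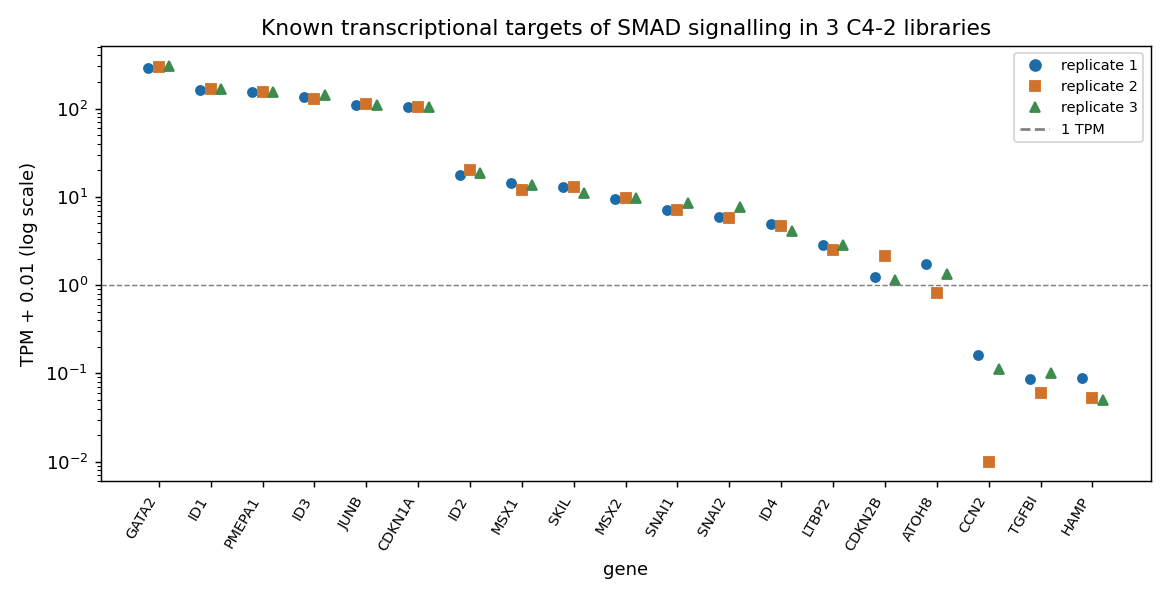
Level of 19 known transcriptional targets in the 3 C4-2 libraries, as TPM + 0.01 on a log axis, with 1 symbol for each replicate and a dashed line at 1 TPM. The 16 detected targets have a mean above 1 TPM and CCN2, TGFBI and HAMP lie far below.

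The promoter windows of detected members held more CG than those of members not detected, at values close to those of all protein-coding genes, which is a description with no test. The 33 detected members with a window held 3 to 58 CG dinucleotides with a median of 31, and 24 of them (72.7%) had at least 20. The 12 members not detected had a median of 8, and 3 of them (25.0%) had at least 20. Without GDF1, whose 0 is uninformative, 2 of 11 (18.2%) had at least 20. Among protein-coding genes 72.7% of 11380 detected and 22.0% of 3909 not detected genes had at least 20, with medians of 27 and 6. GDF15 with 11 and AMH with 8 CG dinucleotides were expressed members with CG-poor windows. The TATA motif TATAAA, searched on both strands, was present in 9 of the 45 members. It was present in 11.8% of 27305 genes, also counted with 1 window each. The AP-1 motif TGACTCA, also on both strands, was present in 2 members, INHA and TGFBR2, and in 4.85% of those genes. No window was matched for BMP2, BMP3, BMP7, GDF6, INHBE, LEFTY1, LEFTY2, NOG and ACVRL1. The windows of GDF5, BMP4 and BMPR1A lay 16521, 1775 and 856 bases from the annotated start used for matching, and they are kept in these counts.

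**Figure D5:**
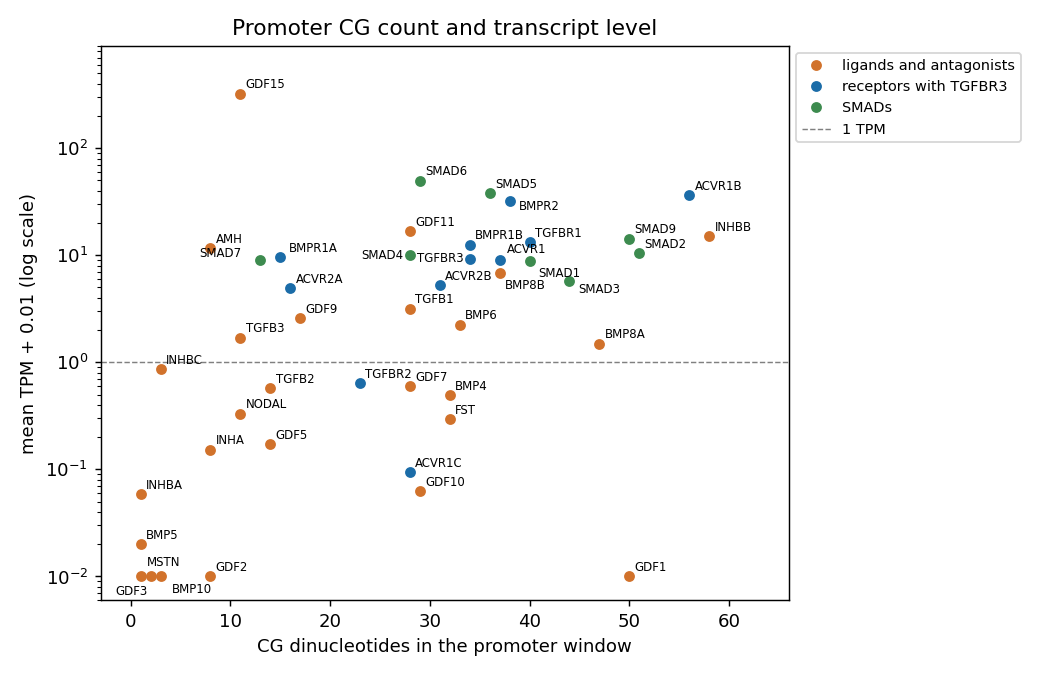
Mean level over 3 libraries, as TPM + 0.01 on a log axis, against the number of CG dinucleotides in the promoter window of 300 bases for the 45 members with a window, coloured by role, with a dashed line at 1 TPM. INHBB lies at the upper right with 58 and INHBA at the lower left with 1, while GDF15 combines the highest level with 11.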

How the data were processed

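RNA of 3 C4-2 libraries was sequenced after ribosomal RNA depletion with a directional kit, from 770 ng of RNA each, per the labels' protocols. The authors deposited raw read counts per gene, made with featureCounts 1.6.3 on the Ensembl 90 annotation of GRCh38, per the file headers. The recorded command sets no strand or pair option, so reads of overlapping antisense genes cannot be told apart, and if the reads are paired, each mate was counted on its own. The submitters' processing notes also name STAR 2.7.0f and DESeq2 1.26.0.

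The members, lists and tests were chosen with earlier results of these data known. TPM was computed from the counts and the merged exon lengths in the files, and TPM counted over protein-coding nuclear genes alone is about 1.52-fold higher for every member. Gene names came from GENCODE release 44 and matched 57532 of 58302 genes. Differences between genes are on log2(TPM + 0.1), tested by the exact sign-flip permutation test over libraries. Variation between libraries was tested by chi-square against effective library sizes of edgeR 4.0.16 (TMM, R 4.3.3), with Benjamini-Hochberg adjustment, after a check on simulated data. The outcome of that check is not reported here, and no conclusion rests on it. With 1 group, the quasi-likelihood test of edgeR had no contrast. Alternatives were size factors of DESeq2 1.42.0, other filters, pseudocounts and lengths, and leaving out each replicate. The pseudocount of 0.1 and the 10-read limit weigh on the lowest genes. At these depths 3 reads correspond to 0.0586 to 0.0631 CPM. Every member at 1 TPM or more or called varying is named with each library's level, other members with their reads, and other pathway lists by their 4 highest genes. Further genes of those lists, among them RET, ITGB8, FSTL3, CCN2, TGFBI, HAMP and the lower targets given, were named beyond this rule. The list of transcriptional targets held 1 gene beyond the 19 counted, and it is not reported here. Other samples of the series were not analysed here.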

Additional observations from a re-analysis of the deposited data

How the results depend on the processing

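No paired analysis was possible because the libraries form 1 group. The counts of detected members (33 to 44) and of members at 1 TPM or more (28 to 35) stayed within 1.5 times the reported ones under every alternative run. The count of members varying between libraries was 5 with the statistic divided by 2 and ranged from 6 to 17 when 1 replicate was left out, 6 being without replicate 3. TPM over protein-coding nuclear genes rescaled every class median, by construction, to 2.58 (TGF-beta ligands), 0.809 (activin and inhibin subunits), 2.25 (BMP ligands), 0.169 (GDF ligands), 0.373 (NODAL, LEFTY and AMH), 14.5 (type I receptors), 7.98 (type II receptors), 15.9 (receptor-regulated SMADs), 15.1 (SMAD4, SMAD6 and SMAD7) and 1.07 TPM (antagonists). Detected members alone gave medians of 0.850 for activin and inhibin subunits, 2.22 for BMP ligands, 9.62 for GDF ligands, 11.5 for NODAL, LEFTY and AMH, 11.0 for type I receptors and 1.13 TPM for antagonists, by leaving out the lowest genes. Canonical transcript lengths, an alternative chosen after seeing the data, gave 0.350, 0.513, 0.0735 and 0.153 TPM for the activin, BMP, GDF and NODAL classes, 4.65 for type II receptors, 9.73 for receptor-regulated SMADs and 0.492 TPM for antagonists. The median of SMAD4, SMAD6 and SMAD7 ranged from 9.50 to 10.6 TPM over the libraries left out. The BMPR1A minus BMPR1B difference reversed to 0.46 on log2(CPM + 0.1) and to 0.26 with canonical transcript lengths, since BMPR1A has the longer merged exons. No other of the gene pairs compared changed sign. Orders outside these pairs did change with canonical transcript lengths. SMAD1 at 11.7 TPM was then above SMAD9 at 9.73 TPM, and BMPR1A at 11.2 TPM above TGFBR1 at 9.26 TPM. With a pseudocount of 1 the differences that involve genes under 1 TPM shrank, to 1.40 for TGFB1 minus TGFB2, -1.11 for BMP4 minus BMP2, 2.28 for BMP7 minus BMP4, 3.14 for TGFBR1 minus TGFBR2, 4.34 for BMPR2 minus TGFBR2 and 0.74 for NOG minus FST. The levels of 25 of 30 members moved by more than 1 SD with canonical lengths, at 0.199 to 1.48 times the reported value. Members with fewer than 10 reads are limited by depth: their absence was not shown.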
